A study of Homo sapiens with 6 samples.

Results

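The genes described here encode the Wnt ligands, the Frizzled and LRP receptors that bind them, and the secreted proteins that hold them back. They were taken as 40 named genes: 18 ligands, 12 receptors and 10 antagonists. On these arrays 37 of the 40 were read out by a probe set annotated to a single gene, out of 19775 genes read out in the same way, and each gene was represented by the brightest of its probe sets, judged by the mean of all 6 arrays. WNT3 and FZD8 shared their annotated probe sets with another gene, WNT3A was not matched to a probe set, and these 3 were not analysed here. A gene was called dim when its mean lay under the 30th percentile of all genes, a log2 intensity of 5.12, and 26 of the 37 lay at or above that limit and were tested.

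The RNA came from COLO-320DM, an established line from a human colorectal cancer that has a truncated APC and amplified MYC. Untreated cultures had been sorted by CD44, a hyaluronan receptor whose presence on the surface is used to mark stem-like cells in colorectal cancer, into CD44-positive and CD44-negative cells, with 3 Affymetrix arrays each, numbered 01, 02 and 03 in both groups. The series asked how tankyrase inhibitors, which act on the Wnt pathway, reach the CD44-positive cells, and the question here was whether the outer part of that pathway differed between the sorts. Both groups are the same line, so other cells of a tumour were not sampled, and the labels did not say that the numbers stood for separate cultures. The p-values therefore measure only how far these samples scatter, and that scatter may be technical. Each difference is on the log2 scale, the CD44-positive mean minus that of the CD44-negative arrays, so that a difference of 1 is 2-fold.

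Wnt proteins are secreted lipid-modified ligands that bring a Frizzled receptor together with the co-receptor LRP5 or LRP6 on the cell surface. This stops the destruction complex, built on APC and AXIN, from degrading beta-catenin, while some ligands such as WNT5A and WNT11 act mostly without beta-catenin. SFRP proteins and WIF1 bind Wnt ligands outside the cell, and some DKK proteins, such as DKK1, block LRP5 and LRP6. In the intestine this signal maintains the crypt stem cells, and in colorectal cancer the genes of several antagonists are commonly silenced by promoter methylation.

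The arrays were alike, with median intensities of 44.9 to 46.5, and their number limited the precision of every value. CD44 itself stood at 7.86, 8.13 and 7.11 in CD44-positive arrays 01, 02 and 03 and at 5.41, 5.29 and 4.99 in the CD44-negative arrays. Its difference of 2.47 had an adjusted p by limma of 0.106 without the block described next and 0.00176 with it, and the first was the smallest of all genes in that fit. Of 11 markers of colorectal epithelium 8 lay above the dim limit, among them KRT8, KRT18 and CDX2, while EPCAM, CDH1 and KRT19 lay under it. At or above the limit also lay 13842 of all 19775 genes, 4 of 6 leukocyte markers and 3 of 5 endothelial markers. The count therefore does not mark a cell type. Same-numbered arrays deviated together from their group means, so a second fit, blocked on the replicate number, is given beside the first.

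No Wnt ligand, receptor or antagonist passed limma's test, 0 of 26 without the block, where 0% of the 13842 genes tested passed, and 0 of 26 with it, where 0.0578% of all genes passed. At an unadjusted p under 0.05 there were 2 members without the block, FZD7 and FZD1, or 7.69% against 1.97% of all genes. With the block there were 3, these and WNT5A, or 11.5% against 7.49% of all genes, and all 3 were higher in the CD44-positive cells, where 4.24% of all genes were higher at that p. Over the 26 members 16 differences were above 0, or 61.5% against 48.9% of all genes, and the median difference was 0.029 against -0.0025 over all genes. In 2 members, FZD7 and WNT5A, the groups did not overlap, which is 7.69% against 5.43% of all genes. The sign was the same in all 3 same-numbered pairs in 6 members, or 23.1% against 28.5% of all genes. These shares rest on 2 to 16 of 26 genes.

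The intervals bounded most differences between these arrays, given a scatter that may be technical. The 95% confidence interval lay inside 2-fold either way in 24 of 26 members, against 98.7% of all genes, and the exceptions were WNT11 and WIF1. It lay inside 1.5-fold in 20 members, or 76.9% against 93.2% of all genes, and FZD1, FZD7, WNT5A and DKK1 were the others outside it. In 23 of 26 members, or 88.5%, the means of the 3 replicate numbers ranged more widely than the sorts differed, against 88.6% of all genes. This share is therefore not particular to the members. A range over 3 means is also not the same measure as a difference of 2 means. The plot of differences shows each member with its interval.

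**Figure D1:**
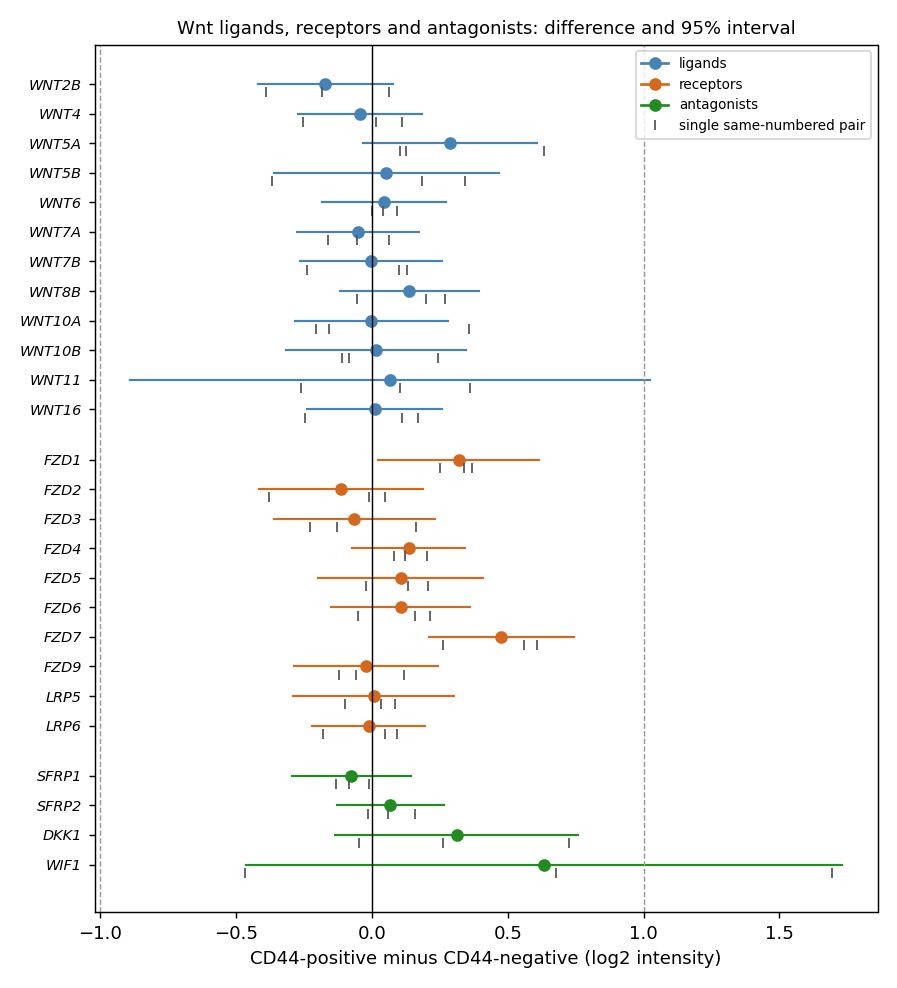
The x axis gives the difference in log2 intensity, CD44-positive minus CD44-negative, for the 26 members above the dim limit, grouped as ligands, receptors and antagonists on the y axis. Points are differences of group means (n = 3 arrays each), lines are 95% confidence intervals from limma, short ticks are the 3 same-numbered pairs, and dashed lines mark 2-fold; the intervals of FZD7 and FZD1 lie above 0, at 0.21 to 0.74 and 0.024 to 0.61.

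Among the receptors, FZD7 and FZD1 had the highest differences. FZD7 encodes a Frizzled receptor known from the stem cells of the intestinal crypt. It stood at 9.43, 9.41 and 9.06 in CD44-positive arrays 01, 02 and 03 and at 8.82, 8.85 and 8.80 in the CD44-negative arrays. All 3 CD44-positive arrays lay above all CD44-negative arrays, array 03 least. The difference was 0.48 ± 0.12 (SE) or 1.39-fold, from 8.82 ± 0.028 to 9.30 ± 0.21 (SD, n = 3), and its adjusted p by limma was 1.00 without the block (unadjusted 0.00336) and 0.166 with it (unadjusted 0.000779). The pairs differed by 0.61, 0.56 and 0.26. A measurement on sorted cells cannot tell apart more cells that carry a transcript and more of it per cell. The call depended on how the spread was modelled and on pair 03: in the blocked fit it passed when a variance trend was used (adjusted p = 0.0127, as did 0.564% of all genes), with array weights (0.0454, and 0.311% of all genes) and without pair 03 (a difference of 0.58, adjusted p = 0.0141, and 0.917% of all genes). It passed under no other alternative.

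FZD7 has 2 probe sets above the limit, and they gave nearly the same value. The second set stood at 8.47, 8.51 and 7.89 in the CD44-positive and 7.80, 7.95 and 7.73 in the CD44-negative arrays, a difference of 0.46 with an unadjusted p of 0.00284 with the block. Here CD44-positive array 03 lay within the CD44-negative range. Both sets carry the _s_at suffix for probes shared by several transcripts, and FZD7, FZD1 and FZD2 are close paralogs, so signal from a relative cannot be told apart on these sets.

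FZD1, the close relative of FZD7, stood at 8.16, 7.79 and 7.91 in the CD44-positive and 7.82, 7.54 and 7.54 in the CD44-negative arrays. Within each number the CD44-positive array was the higher, by 0.34, 0.25 and 0.37, but the groups overlapped, because array 02 of the CD44-positive group lay under array 01 of the other. The difference was 0.32 ± 0.13 (SE) or 1.25-fold, with an adjusted p by limma of 1.00 (unadjusted 0.0374) and with the block of 0.246 (unadjusted 0.00206). The second set of FZD1 stood at 6.35, 6.26 and 6.32 against 5.90, 5.84 and 5.77. Its groups did not overlap, as in 5.58% of all probe sets above the limit, and its difference of 0.47 had an adjusted p of 0.103 with the block in the fit of every probe set. This second set carries the _s_at suffix, as both FZD7 sets do, so signal from a relative cannot be told apart on it either.

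The promoter of FZD1 is shown because this gene had the highest difference after FZD7 among the receptors; FZD7 has no entry in the promoter table used here. It is printed from the RefSeq promoter table as the 250 bases before the gene start, 5′ to 3′ on the plus strand, chr7:91264183-91264432 of GRCh38.p14. Capitals would mark 1 of 4 motifs of the TCF/LEF type on either strand. These are CTTTGAA, the related CTTTGAT, the third form CTTTGTA and the last form CTTTGTT, and since they are different strings of the same length, no 2 of them can start at the same base of a strand. None occurs in this window, which holds 19 CG dinucleotides.
FZD1: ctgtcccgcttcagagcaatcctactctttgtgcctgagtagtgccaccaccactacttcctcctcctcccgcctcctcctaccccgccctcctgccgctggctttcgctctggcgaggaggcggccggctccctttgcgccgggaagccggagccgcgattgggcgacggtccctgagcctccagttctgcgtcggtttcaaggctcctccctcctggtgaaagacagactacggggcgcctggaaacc

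FZD2, the third of these relatives, did not share this direction on its main probe set. It stood at 7.78, 7.48 and 7.48 in the CD44-positive and 7.74, 7.49 and 7.86 in the CD44-negative arrays, a difference of -0.11 (95% interval -0.42 to 0.19). Its second probe set went the other way, at 0.20, higher in 3 of 3 pairs with an unadjusted p of 0.0199 with the block, so the direction of FZD2 rests on the choice of probe set. That second set carries the _s_at suffix too, and signal from a relative cannot be told apart on it. FZD4, which also binds the non-Wnt ligand norrin, differed by 0.13 (-0.075 to 0.34) and was higher in 3 of 3 pairs. FZD5, a receptor needed for Paneth cell maturation, and FZD6, best known from planar polarity, each differed by 0.11 and had 2 of 3 pairs higher. FZD3, also a polarity receptor, was at -0.064, and its 4 probe sets ran from -0.19 to 0.036. FZD9 differed by -0.022, and FZD10 was dim, between 2.96 and 3.79 on the 6 arrays.

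The co-receptors had differences close to 0. LRP6 stood at 9.19, 9.12 and 8.98 in the CD44-positive and 9.09, 9.07 and 9.16 in the CD44-negative arrays, and the groups overlapped fully. Its difference was -0.012 with an interval from -0.22 to 0.20. The other 2 probe sets of LRP6 gave -0.052 and -0.20, and the last of these was lower in 3 of 3 pairs with an unadjusted p of 0.0326 with the block. LRP5 differed by 0.0066 (-0.29 to 0.30).

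**Figure D2:**
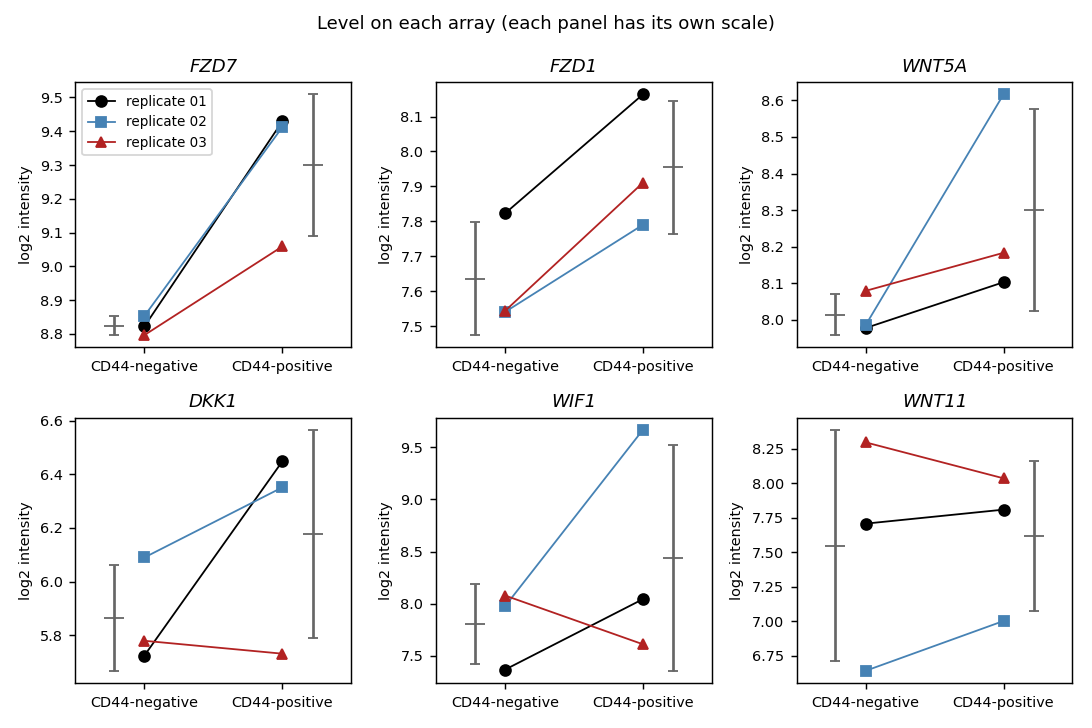
Each panel plots the log2 intensity (y axis, own scale in each panel) of a gene in the CD44-negative and CD44-positive sorts, with lines joining arrays of the same replicate number and bars giving the mean ± SD (n = 3). FZD7 and WNT5A do not overlap between the sorts, FZD1 is higher on the CD44-positive end of each line, and WNT11 is low on both arrays numbered 02.

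Of the ligands, 12 of the 16 read out lay above the limit, 7 with a difference above 0 and 5 below, with a median of 0.012. WNT5A, the main ligand of beta-catenin-independent signalling, stood at 8.10, 8.62 and 8.18 in the CD44-positive and at 7.98, 7.98 and 8.08 in the CD44-negative arrays. The groups did not overlap, and CD44-positive array 02 stood apart from the other 5 arrays. The difference was 0.29 ± 0.14 (SE) or 1.22-fold, from 8.01 ± 0.057 to 8.30 ± 0.28 (SD, n = 3), with an adjusted p by limma of 1.00 without and 0.615 with the block. The pairs gave 0.13, 0.63 and 0.10, and without CD44-positive array 02 the difference was 0.13. The second set of WNT5A gave 0.095, with overlapping groups.

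WNT11, which acts mostly through cell polarity and movement, varied more between replicate numbers than between sorts. It stood at 7.81, 7.00 and 8.04 in the CD44-positive and 7.71, 6.64 and 8.30 in the CD44-negative arrays. Both arrays numbered 02 were lowest in their group and both numbered 03 highest. The means of the numbers spanned 1.35, while the sorts differed by 0.067, with an interval from -0.89 to 1.03.

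The remaining ligands differed little. WNT2B, a ligand known from the stroma around crypts, was the lowest at -0.17 (-0.42 to 0.077), with pairs at 0.061, -0.18 and -0.39. The difference was -0.099 without CD44-negative array 03, -0.27 without CD44-negative array 01, -0.061 without pair 03 and -0.29 without pair 01, and it passed in none of these fits. All 4 probe sets of WNT2B were below 0, between -0.32 and -0.053. On the set at -0.32 the CD44-positive array was lower in 3 of 3 pairs, with an unadjusted p by limma of 0.0304 with the block. WNT8B, known from the developing brain, was at 0.14 and WNT5B, a relative of WNT5A, at 0.052. WNT10B, which signals through beta-catenin, stood at 7.97 ± 0.26 against 7.96 ± 0.14 (SD, n = 3), and its neighbour on chromosome 12, WNT1, was dim with values of 3.60 to 3.86. WNT6 and WNT10A, neighbours on chromosome 2, differed by 0.044 and -0.0026. WNT4, WNT7A, WNT7B and WNT16 lay between -0.052 and 0.010.

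Most secreted antagonists were dim, 6 of the 10, and 4 were tested. WIF1, which binds Wnt ligands directly, stood at 8.04, 9.67 and 7.61 in the CD44-positive and 7.37, 7.97 and 8.08 in the CD44-negative arrays. A single array, CD44-positive 02, lay far above the rest, and CD44-positive array 03 lay below 2 of the CD44-negative arrays. The difference of 0.63 ± 0.48 (SE) or 1.55-fold was the largest among the tested members, but its interval ran from -0.46 to 1.73 and its adjusted p by limma was 1.00 without and 0.756 with the block. The pairs gave 0.68, 1.69 and -0.47. Without CD44-positive array 02 the difference was 0.020, and in the blocked fit it was 1.18 when pair 03 was left out (adjusted p = 0.0161), so the value rests on which arrays are kept. Array weights moved it to 1.37 (adjusted p = 0.884).

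DKK1, an inhibitor of LRP6 that is itself a known Wnt target, stood at 6.45, 6.35 and 5.73 in the CD44-positive and 5.72, 6.09 and 5.78 in the CD44-negative arrays. CD44-positive arrays 01 and 02 lay above all the others, and array 03 lay within the CD44-negative range. The difference was 0.31 ± 0.19 (SE) or 1.24-fold, with an interval from -0.13 to 0.76 and an adjusted p by limma of 1.00 without and 0.664 with the block. It was 0.54 without CD44-positive array 03 and 0.18 without CD44-positive array 01, neither of which passed. The decoys SFRP1 and SFRP2 differed by -0.076 (-0.29 to 0.14) and 0.067 (-0.13 to 0.27). Only 1 of 4 probe sets of SFRP1 and 1 of 2 of SFRP2 lay above the dim limit.

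The promoters of DKK1 and WIF1 are shown because these were the antagonists with the highest differences. Both are the 250 bases before the gene start from the same table, DKK1 on the plus strand at chr10:52314031-52314280 and WIF1 on the minus strand at chr12:65121306-65121555 of GRCh38.p14, with capitals as for FZD1. DKK1 holds CTTTGAA and CTTTGTT, which begin 95 and 76 bases before the gene start. WIF1 holds no such letters and has 27 CG dinucleotides.
DKK1: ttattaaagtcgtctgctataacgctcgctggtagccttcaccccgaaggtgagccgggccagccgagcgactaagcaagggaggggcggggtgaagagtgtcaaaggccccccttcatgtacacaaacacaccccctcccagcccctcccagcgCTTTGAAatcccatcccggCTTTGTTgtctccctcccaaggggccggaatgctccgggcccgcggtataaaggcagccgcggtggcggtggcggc
WIF1: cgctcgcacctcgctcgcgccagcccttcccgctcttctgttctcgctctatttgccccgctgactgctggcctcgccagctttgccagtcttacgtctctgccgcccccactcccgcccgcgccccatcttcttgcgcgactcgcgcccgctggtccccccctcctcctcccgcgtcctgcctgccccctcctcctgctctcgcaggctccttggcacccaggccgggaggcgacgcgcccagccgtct

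Promoters were found in that table for 27 of the 40 genes, 30 promoters in all. The motif letters occurred in 1 of these 30, the one of DKK1, against 12.0% of all 35116 promoters in the same 250-base window. The members' windows were rich in CG, with a median of 23.5 dinucleotides against 11 over all promoters. Those of tested and of dim members had the same median, 21. A match to such letters is a description of the sequence and not a binding site, and methylation was not measured.

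The 11 dim members were WNT1, WNT2, WNT8A, WNT9A, FZD10, SFRP4, SFRP5, FRZB, DKK2, DKK3 and DKK4. No array of theirs exceeded 5.17, and the lowest value was 2.73, for DKK2. In WNT8A, a ligand of the early embryo, and SFRP5, a decoy, the CD44-positive arrays lay below all the CD44-negative arrays. The share of all dim genes without overlap was not counted. DKK4 was, like both, lower in 3 of 3 pairs, while FZD10 and SFRP4 were higher in 3 of 3. FZD10 differed by 0.27, with an adjusted p by limma of 0.653 with the block when dim genes were tested too. WNT8A stood at 4.65, 4.62 and 4.41 against 4.91, 4.80 and 4.73, a difference of -0.25 with an adjusted p by limma of 0.527 with the block when dim genes were tested too. Values near the background carry little information on size, and none of the 11 reached a difference of 1 on the probe set read out.

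**Figure D3:**
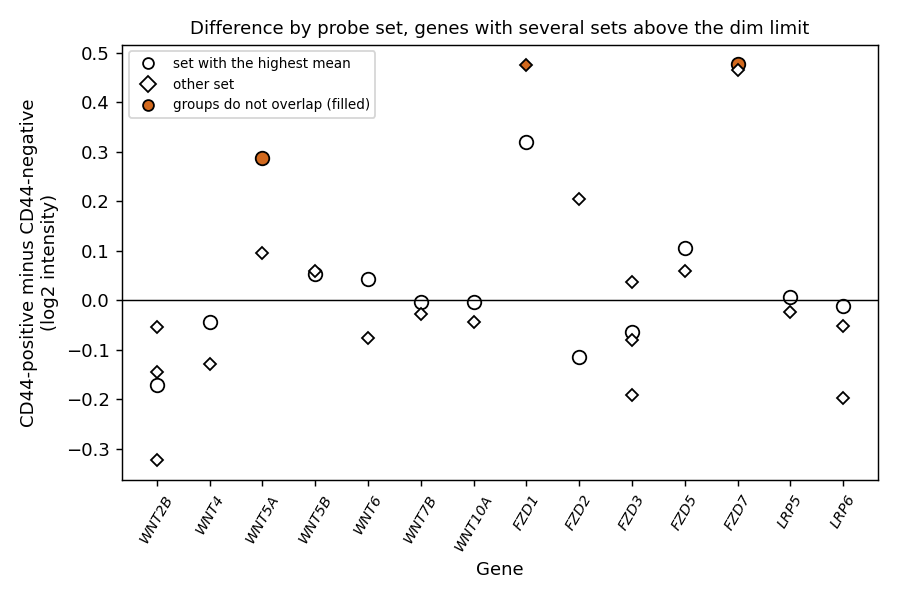
The y axis gives the difference in log2 intensity, CD44-positive minus CD44-negative, of each probe set above the dim limit for the 14 members (x axis) with more than 1 such set. Circles are the sets with the highest mean, diamonds the others, and filled symbols mark the 3 sets whose groups do not overlap: those of FZD7, FZD1 and WNT5A; FZD2 has a set on either side of 0.

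How far probe sets of a gene spoke alike could be read in 14 members. In 10 of them every set above the limit had the same sign, and in WNT6, FZD2, FZD3 and LRP5 the signs differed. Groups without overlap were found on 3 of the members' 45 probe sets above the limit, or 6.67% against 5.58% of all such sets.

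The pair differences were also summarized over the members. They do not show what the replicate numbers contributed, because a shift shared by both arrays of a number cancels in them. The median of the 26 members' pair differences was 0.097, 0.083 and -0.049 in pairs 01, 02 and 03. Over all genes these medians were 0.025, -0.0076 and -0.021. For the receptors they were 0.12, 0.12 and -0.074 and for the antagonists 0.37, 0.12 and -0.090, while for the ligands they were 0.081, 0.027 and 0.077, so that pair 03 was not the low one there. CD44-positive array 03 was also the one with the lowest CD44, at 7.11. FZD7, FZD1 and WNT5A kept their sign in this pair, while DKK1 and WIF1 were lower in its CD44-positive array.

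**Figure D4:**
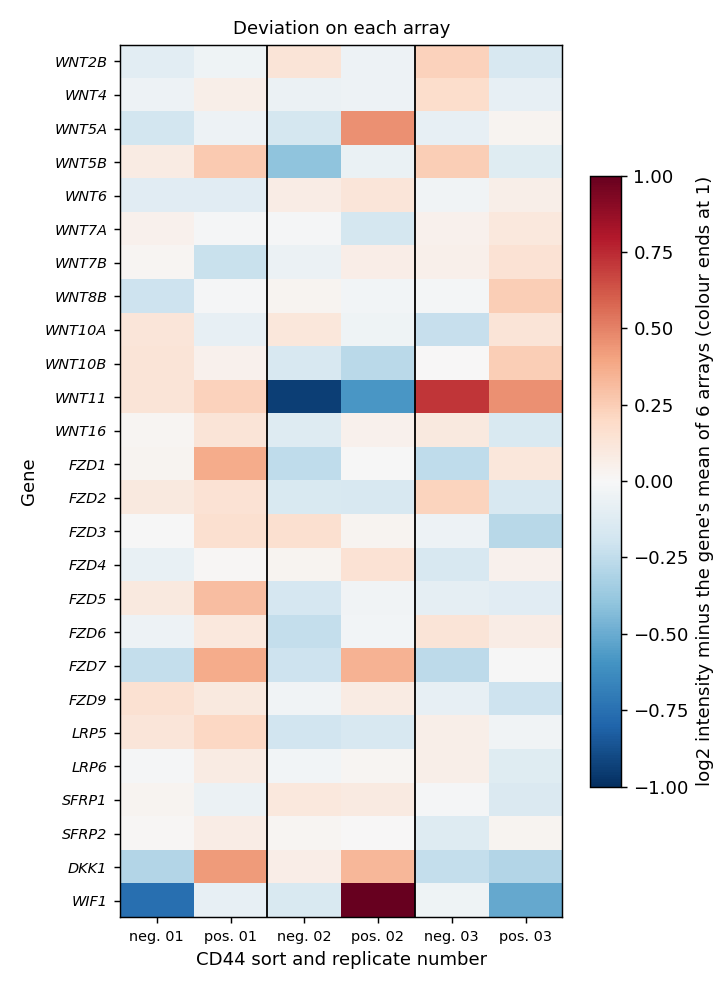
Colours give the log2 intensity of each array minus the gene's mean over the 6 arrays, for the 26 members (y axis), with arrays (x axis) ordered by replicate number and then by sort, and the colour scale ending at 1. WNT11 is low on both arrays numbered 02, down to -0.94, and WIF1 stands out on CD44-positive array 02, at 1.54.

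Some markers of fibroblasts and of neuroendocrine and epithelial cells were higher in the CD44-positive arrays, as FZD7 and FZD1 were, and others were lower. Of 12 fibroblast markers 7 lay above the limit, 4 with a difference above 0 and 3 below, and COL6A3, LUM, PDGFRA, FAP and POSTN lay under it. The mean log2 level of the 12 was 5.66 to 5.89 in the CD44-positive and 5.42 to 5.54 in the CD44-negative arrays, a difference of 0.30. Without LUM, a dim gene that differed by 2.02, it was 5.79 to 5.93 and 5.69 to 5.79, a difference of 0.14. The summed intensity of the 12 was 1733 to 3847 and 1386 to 2428, and without COL3A1, the brightest of them, 599.8 to 692 and 577 to 684; both omissions were chosen after the values were seen. COL3A1 differed by 0.78 (adjusted p by limma 0.0526 with the block), S100A4 by 0.71 (0.178) and COL1A2 by 0.31 (0.243), each higher in 3 of 3 pairs and the last without overlap. COL1A1 differed by -0.23, lower in 3 of 3 pairs and also without overlap. Of 7 neuroendocrine markers 2 lay above the limit, ENO2 at 0.49 and SYP at 0.17, both higher in 3 of 3 pairs (adjusted p by limma 0.272 and 0.662 with the block) and SYP without overlap. CHGA, CHGB, SCG2, SCG3 and INSM1 were dim, and the summed intensity of the 7 was 128 to 213 against 110 to 187. Of the 8 epithelial markers above the limit 3 had a difference above 0 and 5 below. KRT20 differed by 0.63 without overlap (adjusted p by limma 0.298 with the block). The dim EPCAM, KRT19 and CDH1 differed by -0.47, -0.27 and -0.092. EPCAM, without overlap, and KRT19 were lower in 3 of 3 pairs. The summed intensity of the 11 was 4650 to 5144 against 4712 to 5577. The summed intensity of 6 leukocyte markers was 351 to 364 against 352 to 384, and that of 5 endothelial markers 173 to 199 against 184 to 189. The part of these levels in the receptor values was not tested.

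The other genes of the outer Wnt pathway were read out as 6 lists by role, 70 genes on the array, of which 56 were above the limit. No gene of these lists passed limma's test with or without the block. At an unadjusted p under 0.05 there was 1 without the block, or 1.79% against 1.97% of all genes, and 9 with it, or 16.1% against 7.49%, 4 higher and 5 lower. The median difference of the 56 was 0.014, with 31 above 0. In 3 of the 56, RSPO1, TMEM198 and VANGL2, the groups did not overlap, or 5.36% against 5.43% of all genes.

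In ligand secretion, 7 of 11 tested genes were above 0. WLS, the carrier that brings Wnt proteins to the cell surface, differed by -0.057 (-0.30 to 0.19). GPC6, a glypican, was at -0.28 and TRABD2B, a protease that inactivates Wnt proteins, at -0.21, both lower in 3 of 3 pairs with unadjusted p values by limma of 0.00429 and 0.0304 with the block. PORCN, which attaches the lipid to Wnt proteins, was not analysed here.

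In the R-spondin axis, which sets how many Frizzled receptors stay on the surface, 4 of 5 tested genes were below 0. RNF43 and ZNRF3, the ubiquitin ligases that remove Frizzled receptors, differed by -0.12 (-0.37 to 0.14) and 0.022 (-0.23 to 0.27). LGR5, a crypt stem cell receptor for R-spondins, differed by -0.15, and RSPO1 by -0.20 with groups that did not overlap (unadjusted p by limma 0.0359 with the block). RSPO2, RSPO3, RSPO4 and LGR6 were dim.

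Among the other inhibitors, KREMEN1, which works with DKK proteins against LRP6, stood at 9.94, 9.63 and 9.92 in the CD44-positive and 9.54, 9.46 and 9.72 in the CD44-negative arrays, a difference of 0.26 ± 0.12 (SE). It was higher in 3 of 3 pairs (adjusted p by limma 0.442 with the block). SOSTDC1, which binds LRP6 and BMP ligands, was at -0.26 (adjusted p 0.421 with the block). LRP4, a relative of LRP6, was at 0.18. In this list and that of other receptors, 5 of 7 and 7 of 10 tested genes were above 0.

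The first steps inside the cell had differences near 0. All 15 genes of that list were tested, 7 were above 0, their median was -0.0044, and every interval lay inside 1.5-fold. AXIN2, a Wnt target, differed by -0.042 (-0.40 to 0.31), and CSNK1E, a kinase of Dishevelled, by 0.18 (unadjusted p by limma 0.0470 with the block). In the planar polarity core, VANGL2, a membrane protein of that system, stood at 6.70, 6.48 and 6.57 in the CD44-positive and 6.87, 6.94 and 6.89 in the CD44-negative arrays. The groups did not overlap, and VANGL2 differed by -0.32 ± 0.091 (SE), with an adjusted p by limma of 1.00 without and 0.341 with the block. PRICKLE1, a cytoplasmic partner of VANGL2, differed in the other direction by 0.49 ± 0.25 (SE), higher in 3 of 3 pairs (adjusted p 0.235 with the block).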

How the data were processed

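Total RNA of 3 CD44-positive and 3 CD44-negative sorts was measured on Affymetrix arrays. The deposited values are intensity values to which RMA, a background correction, normalization and probe set summary, had been applied, per the submitters' processing notes. The sources used here name no version, software or genome build (not given). The design allowed for linear values, which the table held, so log2 was taken with no pseudocount. RMA compresses differences near the background.

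The table held 54675 probe sets, 62 of them controls. A platform annotation named 1 gene for 41091, several for 1801 and none for 11721. Symbols were updated through RefSeq for 41037, and 54 kept theirs.

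Genes were compared with limma 3.58.1 in R 4.3.3 by two-sided tests, p-values being adjusted over 13842 genes after Benjamini and Hochberg and a threshold of 0.05, first tested on simulated data. Tables and plots used Python 3.11.15, pandas 2.3.3, numpy 2.4.6 and matplotlib 3.10.9. The labels number the arrays alike in both groups without stating a shared culture. Deviations from group means correlated at 0.465, 0.689 and 0.626 between same-numbered arrays and from -0.496 to -0.107 between others. Deviations cancel out within a group, so positive values for same-numbered arrays push the others down, and the latter are no separate evidence. Same-numbered arrays were treated as pairs, and the block is an alternative to the unblocked design.

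The members and lists were chosen with earlier results of these data known. All arrays' values were to be given for members above the limit with an unadjusted p under 0.05 in either fit, without overlap, or with a difference of at least 0.5, and for dim members with a probe set differing by 1. From the other lists, genes with an unadjusted p under 0.05 with the block were to be named, up to 4 a list, with AXIN2, RNF43, ZNRF3, LGR5, PORCN and WLS. DKK1, FZD2, LRP6, WNT11, WNT8A and the members' second probe sets were given in full after their values were seen. Alternatives were the block, the dim limit, the choice of probe set, 2 further normalizations over single-gene probe sets, a variance trend, array weights and leaving out arrays.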

Additional observations from a re-analysis of the deposited data

How the results depend on the processing

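No member's difference was called in the opposite direction under any of the 28 alternatives. Differences near 0 changed sign, uncalled, in 15 of the 26 members, and FZD7, FZD1, WNT5A, DKK1 and WIF1 were not among them. FZD7 ranged from 0.41 to 0.60. Members called numbered 1 with the block and a variance trend, 1 with the block and array weights, and 0 to 2 when arrays or pairs were left out (2 without pair 03, FZD7 and WIF1). They numbered 0 under the other alternatives, the replicate block alone included. Over all genes, without the block, 2 were called with no filter on dim genes, 1 without _s_at and _x_at sets, 3 with every probe set and 1 with array weights. With the replicate block 8 were called. Joined with the block, no dim filter gave 5, a dim limit at the 50th percentile 16, averaging a gene's probe sets 3, sets without those suffixes 19, every probe set 28, quantile normalization 4, median centring 18, the variance trend 78 and array weights 43. Leaving out single arrays gave 0 to 1, and in the blocked fit leaving out pair 01, 02 or 03 gave 10, 63 and 127. The cause of these shifts was not tested. FZD7 has no probe set free of the suffixes and gave no value there. FZD1 passed under none of them. The 3 arrays a group limit precision, and differences of dim members have no reliable size.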

Other observations

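Several genes of the outer Wnt pathway differed between replicate numbers alike in both sorts, a pattern chosen after the values were seen and not tested. LGR4, a broadly expressed R-spondin receptor, stood at 7.40, 6.52 and 7.33 in CD44-positive arrays 01, 02 and 03 and at 7.36, 6.43 and 7.58 in the CD44-negative arrays. LGR5 stood at 7.20, 6.07 and 7.23 in the CD44-negative arrays. Both genes were lowest on the arrays numbered 02 in either sort, as was WNT11. NOTUM, a secreted enzyme that removes the lipid from Wnt proteins, went the other way, at 8.75, 9.15 and 8.13 and at 7.89, 9.43 and 7.89, highest on the arrays numbered 02. AXIN2 was highest on the arrays numbered 03, at 11.75 and 11.86 against 11.35 to 11.51 on the other 4.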
